A study of Zea mays with 157 samples.

Results

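In the maize inbred line B73, 63 of the 39513 genes in the deposited mRNA table reached at least 20 in the library labelled endosperm and stood at least 10-fold above the highest of the other 25 tissue libraries. These 63 genes are the subject here. They were chosen by their B73 mRNA values, after leaving out 20 named identifiers, none of which met the limits. The B73 mRNA values of the 63 genes are therefore a description of the choice. Their mRNA levels in the inbred line Mo17 and in the F1 of B73 and Mo17, and the circular RNAs (circRNAs) made from them, come from libraries that the choice did not use.

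The groups were B73, Mo17 and the F1 of B73xMo17, each grown without special treatment in a greenhouse under a cycle of 12 h light and 12 h dark at 25 °C. Each line has 26 tissues or stages, with 1 mRNA and 1 circRNA library for each. Each library pooled 3 separately extracted RNA samples in equal amounts, each sample from 5 to 10 plants. The kernel gave 2 of the 26, labelled Endosperm(R2) and Embryo(R2), both of the reproductive stage R2. With 1 pooled library per line and tissue, the spread between plants was not measured.

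In cereals the endosperm surrounds or adjoins the embryo within the grain and stores starch and storage proteins, which feed the seedling at germination. It arises, like the embryo, from a fertilization event, and it includes starch-filled inner cells, an outer aleurone layer and transfer cells at the base that take up sugar from the mother plant. The embryo of a maize kernel lies against it and consists of an axis and a scutellum, which stores oil and absorbs nutrients. A circRNA is a closed ring formed when the end of an exon is spliced back to the start of the same or an earlier exon.

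The label of the library did not hold up against its markers. A list of 9 identifiers taken as endosperm markers from general knowledge, for starch synthesis, sugar use and storage protein control, was higher in the library labelled embryo in 9 of 9 cases in B73, 4 of 4 listed in Mo17 and 9 of 9 in F1. Their summed level in B73 was 725 in the library labelled endosperm and 12445 in the one labelled embryo, and the embryo-labelled sum was 17.2-fold the other in B73, 27.7-fold in Mo17 and 41.2-fold in F1. Libraries with the same kernel label matched between lines: over 10889 genes, the log2 levels of the B73 library labelled endosperm had a Pearson correlation of 0.931 with the Mo17 library of that label and of 0.830 with the Mo17 library labelled embryo, and of 0.951 and 0.831 in F1. The circRNA libraries followed the same arrangement on a wider list, the 20 left-out identifiers, which hold the 9 markers and other genes. The circRNAs hosted by the left-out identifiers summed to 5.15 RPM in the B73 library labelled endosperm and 44.8 RPM in the one labelled embryo. Whether the 2 kernel libraries carry each other's names was not tested. The 63 genes are called below by the library in which they were found, which says nothing about the cell type that made the RNA. In pooled bulk tissue, fewer cells of a type and less RNA per cell cannot be told apart.

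Genes restricted to the library labelled embryo were read in the other kernel library too. The 119 B73 genes restricted to the library labelled embryo by the same limits, at 20 or more and 10-fold over all others, summed to 5605 in the library labelled endosperm, which was 3.51% of their sum in their own library. In the other 24 B73 libraries they summed to between 52.2 and 188. The 130 genes found by the same limits in Mo17 and the 203 in F1 stood in the library labelled endosperm at 2.63% and 2.03% of their sum in their own library. Its part in the results below was not tested.

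The 63 genes spanned a wide range in B73, from 22.3 to 2625, with a median of 80.7 in the deposited unit, which no header or label names. Zm00001d002768 alone supplied 19.4% of their summed level of 13530, and the 10 highest genes supplied 62.4%. Together the genes made up 2.16% of the B73 library labelled endosperm and 0.0938% of the one labelled embryo. The choice kept 0.159% of all B73 genes. Just inside the 10-fold limit were Zm00001d051901 at 10.04-fold, Zm00001d043323 at 10.07-fold and Zm00001d002288 at 10.12-fold. Just outside it were Zm00001d052519 at 9.41-fold, Zm00001d009718 at 9.13-fold and Zm00001d022376 at 9.12-fold. By level, Zm00001d017898 at 22.3, Zm00001d043302 at 24.6 and Zm00001d020268 at 25.1 were the lowest admitted, while Zm00001d028873 at 19.8, Zm00001d053594 at 19.7 and Zm00001d048656 at 19.6 fell short. Gene identifiers are given without names or functions, because neither the files nor the reference table pair these 63 identifiers with a name.

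The next-highest library was either the one labelled embryo or a root, ear, tassel, inflorescence, SAM, stem, internode or leaf library. The library labelled embryo came second for 29 of 63 genes in B73, 18 of 29 in Mo17 and 29 of 63 in F1. In B73 and F1 it came second for 25 of the same genes. Zm00001d035560 was of that kind, at 618 in the B73 library labelled endosperm, 45.9 in the one labelled embryo, and under 1 in all 24 others. Its neighbour by identifier, Zm00001d035559, stood at 714 and 1.35 in the same libraries. Leaving the embryo library aside, 27 of the 63 genes stood at least 100-fold above every other B73 library and 33 of 63 did so in F1.

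Most of the genes had some RNA elsewhere. Zm00001d025201 was at 1 or more in all 25 other B73 libraries, reaching 40.1 in primary root at 6 days against 410 in the library labelled endosperm. Zm00001d012033, named here after its values were seen, was likewise at 1 or more in all 25, with 366 against 32.7 in the library labelled embryo. In B73, 5 of the 63 genes were at 1 or more in at least 20 other libraries, and 14 of 63 were at 1 or more in none. Zm00001d032610 belonged to the latter, with 396 in the library labelled endosperm and 0.463 at most elsewhere. The 11 leaf libraries of B73 held a median of 6 of the 63 genes at 1 or more, and the 13 libraries that were neither leaf nor kernel held a median of 12.

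**Figure D1:**
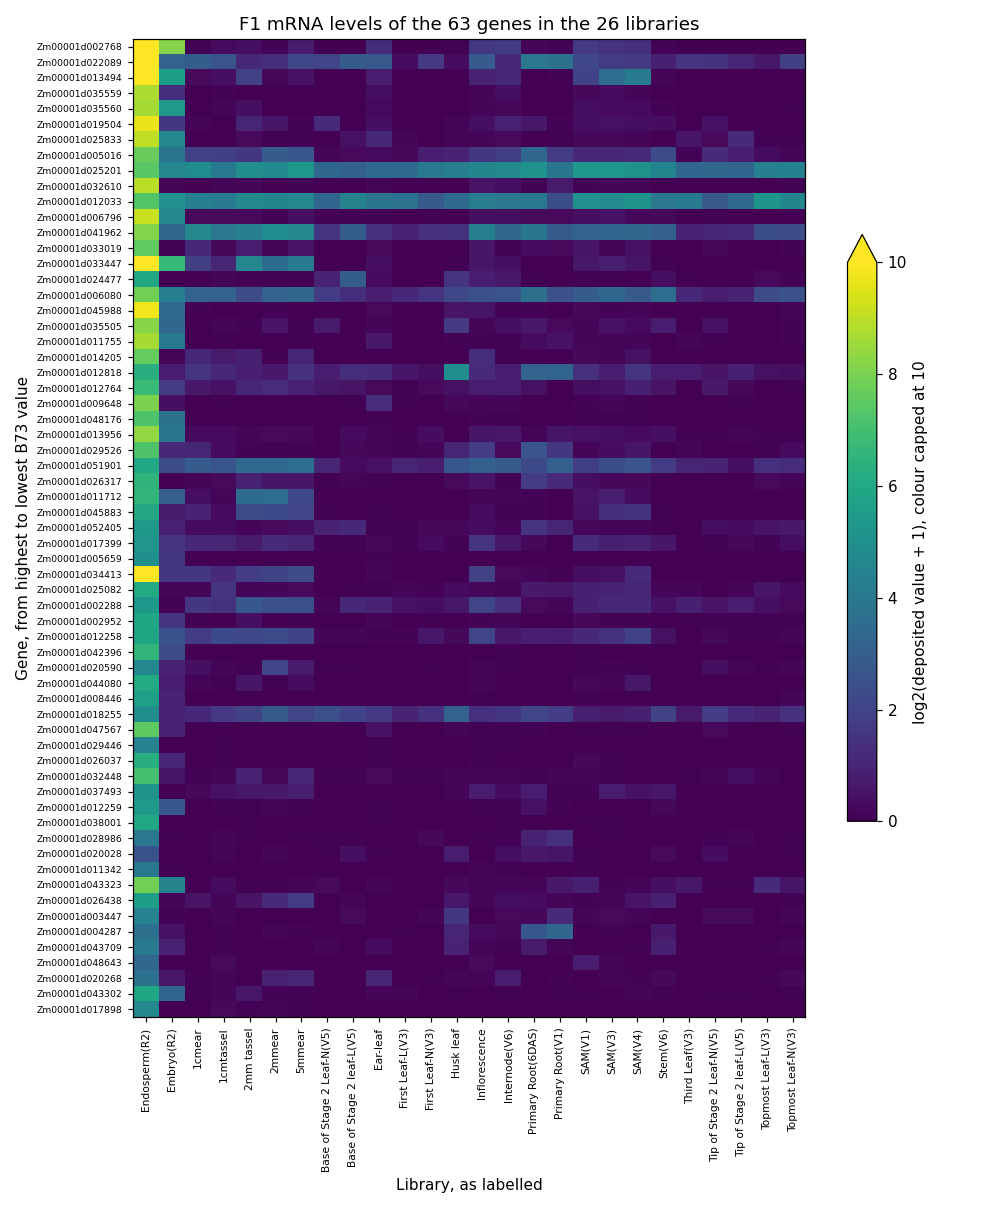
Levels of the 63 genes in F1, as log2(deposited value + 1), with genes down the side in order of their B73 level and the 26 libraries along the bottom; colour is capped at 10. The first column, the library labelled endosperm, is the brightest in every gene, the library labelled embryo beside it comes second for 29 genes, and Zm00001d025201 and Zm00001d012033 are visible across all libraries.

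Whether the same pattern was present in the other lines was asked first with the limits used in B73. All 63 genes are in the F1 table, and 29 of them, those with a partner in the Mo17 genome according to the deposited list of paired features, are in the Mo17 table. In F1, 63 of 63 genes were highest in the library labelled endosperm, and 42 met both limits, or 66.7%, where 0.169% of all genes shared by the B73 and F1 tables did. In Mo17, 28 of 29 genes were highest there and 18 met both limits, or 62.1%, where 0.348% of genes shared by the B73 and Mo17 tables did. At 10-fold or more but under 20 were 4 genes in F1 and 0 in Mo17. Of the 29 paired genes, 17 met the limits in both Mo17 and F1, 3 in F1 alone, 1 in Mo17 alone and 8 in neither. Among the genes in both the B73 and Mo17 tables, the 18 shared genes were 62.1% of the 29 that met the limits in B73 and 47.4% of the 38 that met them in Mo17.

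**Figure D2:**
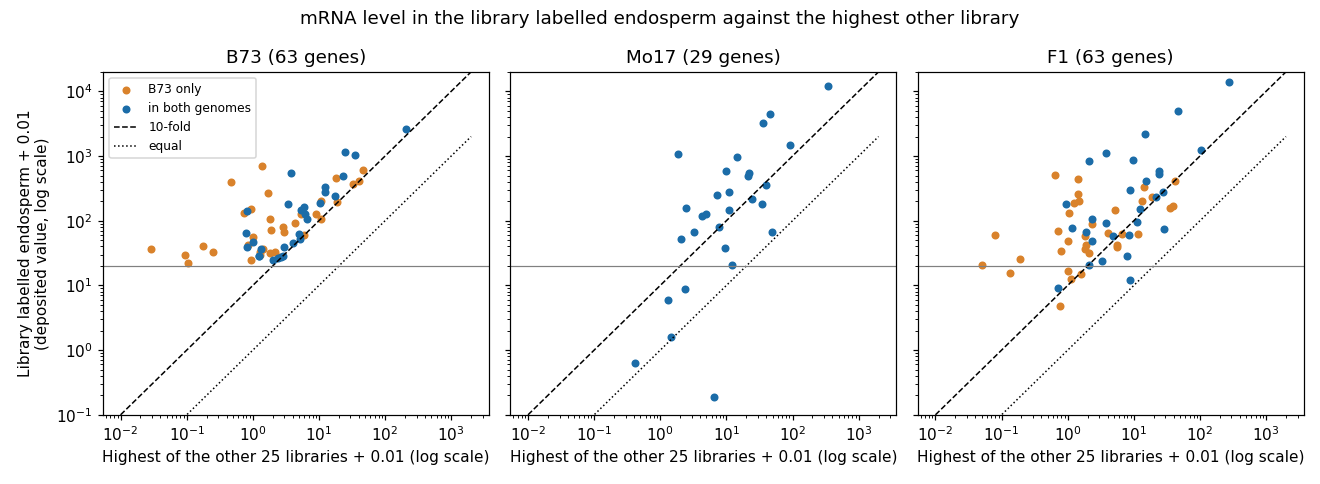
Each point is a gene; its level in the library labelled endosperm is on the vertical axis and its highest level in the other 25 libraries is on the horizontal axis, both in the deposited unit plus 0.01 on log scales, with 1 panel per line. Dashed and dotted lines mark 10-fold and equal levels, and the grey line marks 20: all 63 genes lie inside the limits in B73 because they were chosen so, while 18 of 29 do in Mo17 and 42 of 63 in F1, with 1 Mo17 gene below the line of equal levels.

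The genes with the highest levels were at the head of all 3 lines. Zm00001d002768 stood at 2625 in the library labelled endosperm of B73, 12009 in that of Mo17 and 13828 in that of F1. In the library labelled embryo it stood at 207, 340 and 278, and its highest level in the remaining 24 libraries was lower still. Zm00001d013494 followed the same course, with 1021, 4473 and 5022 in the library labelled endosperm and 34.7, 46.1 and 46.5 in the one labelled embryo.

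Zm00001d022089 reached 1162 in B73, 3265 in Mo17 and 2216 in F1. Unlike the previous pair, it was highest outside the kernel in root or leaf base, at 24.6 in B73 primary root, 35.6 in the base of a Mo17 leaf and 14.6 in F1 primary root. Zm00001d019504 reached 551, 1082 and 843 in the 3 lines, with no other library above 3.76. The value of Zm00001d033447 was 237 in B73, 1468 in Mo17 and 1230 in F1, and its second library was the one labelled embryo in all 3, at 17.5, 90.6 and 103.

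Among genes without a Mo17 partner, Zm00001d035559 stood at 714 in B73 and 437 in F1, and Zm00001d032610 at 396 and 501. For Zm00001d005016 the values were 457 and 205. The F1 table is not on the same scale for both kinds of gene. Over all genes at 1 or more, the F1 level in the library labelled endosperm was a median of 0.986 times the B73 level where a gene has a partner, and 0.553 times where it has none. Zm00001d025833 differed from the other leading genes, at 485 in B73, 215 in Mo17 and 521 in F1, and with 24.4 in the Mo17 library labelled embryo it fell short of the 10-fold limit in Mo17.

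Levels were set side by side between lines after dividing by those median ratios, which was 1.51 for Mo17 over B73. The 3 tables were normalized separately, so these ratios carry no test. In Mo17 the paired genes ranged from 0.00415 to 9.88 times their B73 level, with 7 of 29 at 2 or more and 7 of 29 at 0.5 or less. In F1 they ranged from 0.346 to 17.2, with 10 of 29 at 2 or more and 2 of 29 at 0.5 or less. The median over the 27 paired genes at 1 or more in both libraries was 1.23 for Mo17, beside 0.927 for all paired genes at 20 or more. The F1 median over the 29 paired genes was 1.69, beside 0.917.

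The genes at the top of that order were higher in both Mo17 and F1 than in B73, which picking them by Mo17 over B73 favours. Zm00001d034413 stood at 64.6 in B73, 964 in Mo17 and 1095 in F1, which was 9.88 and 17.2 times the B73 level after scaling. Zm00001d043323 stood at 28.8, 183 and 231. After scaling, Zm00001d033447, Zm00001d002768 and Zm00001d013494 were at 4.10, 3.03 and 2.90 times their B73 level in Mo17, and at 5.25, 5.34 and 4.99 times in F1. For all 5 genes the F1 value lay above the Mo17 value on the scaled measure. That was not particular to them: of the 29 paired genes, only Zm00001d048176 and Zm00001d011712 went the other way.

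**Figure D3:**
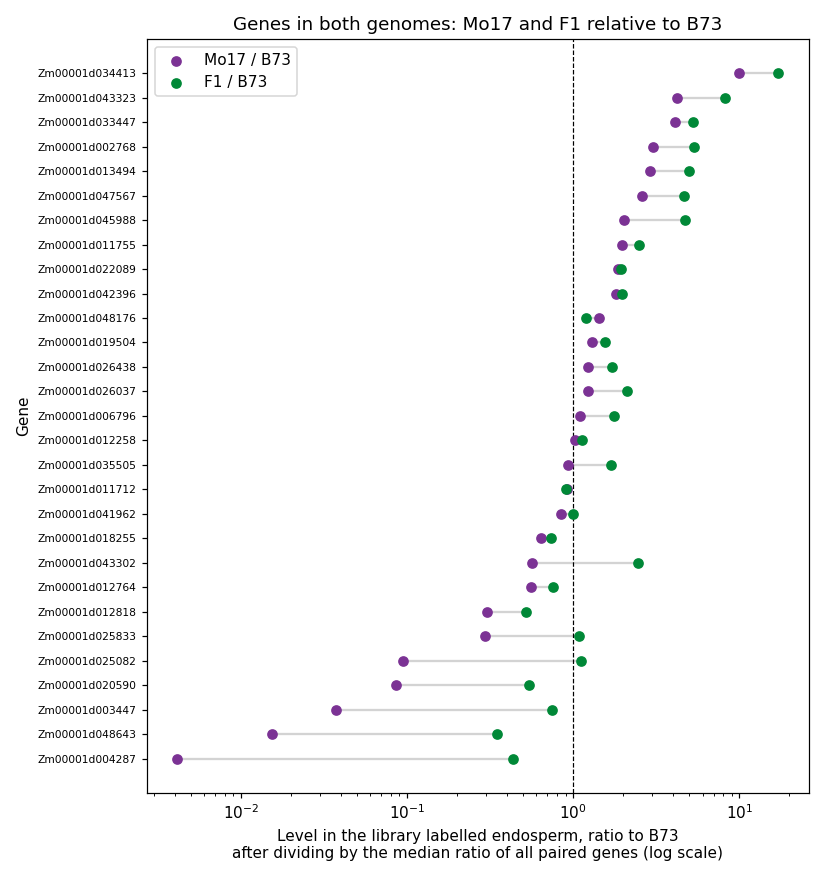
The 29 genes with a partner in the Mo17 genome, ordered by their Mo17 level; the horizontal log axis gives the level in the library labelled endosperm of Mo17 (purple) or F1 (green) as a ratio to B73, after dividing by the median ratio of all paired genes. At the top Zm00001d034413 reaches 9.88 in Mo17 and 17.2 in F1; at the bottom Zm00001d004287 lies at 0.00415 in Mo17 and 0.437 in F1.

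At the other end were genes low in the Mo17 library labelled endosperm. Zm00001d004287 stood at 27.99 in B73, 0.175 in Mo17 and 12.1 in F1. In Mo17 it was higher in stem, at 6.48, and in F1 it reached 8.85 in primary root, so the library labelled endosperm was not its highest in Mo17 and only 1.36-fold above the next in F1. Zm00001d048643 stood at 26.3, 0.613 and 8.98, and Zm00001d003447 at 28.1, 1.59 and 20.6. Zm00001d020590 stood at 45.3, 5.87 and 24.1, and Zm00001d025082 at 61.5, 8.73 and 67.7. In all 5 the F1 value was higher than the Mo17 value, an outcome favoured by picking them for a low Mo17 level. On the scaled measure the same held for every other paired gene except Zm00001d048176 and Zm00001d011712, so it was not particular to these 5. The F1 table holds no separate values for the alleles of the parents.

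Other paired genes were above 20 in Mo17 and F1 and missed the 10-fold limit through a high level in a second library. Zm00001d012818 stood at 66.9 in the Mo17 library labelled endosperm and at 48.9 in husk leaf, and at 75.6 and 28.9 in F1, against 147 and 0.848 in B73. Zm00001d018255 stood at 38.3 in Mo17 with 9.65 in primary root, and at 28.9 in F1 with 7.77 in husk leaf. Zm00001d043302 stood at 20.97 and 59.8 in the libraries labelled endosperm of Mo17 and F1, with 12.1 and 8.41 in those labelled embryo.

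Taking Mo17 and F1 together gave 2 libraries labelled endosperm against 50 others, which allowed a test with limma on log2(value + 1), with the line as a block and Benjamini-Hochberg adjustment over all 28584 genes tested. The spread in this test is between tissues and lines. Of the 28 members tested, 27 passed as higher in the libraries labelled endosperm, where 5.02% of all genes tested were higher. The median log2 fold change was 6.56 for the 28 members and 0.06 for all genes. All 28 were at 1 or more in at least 2 of the 50 other libraries, so none was admitted to the test by the libraries labelled endosperm alone. The remaining paired gene, Zm00001d048643, reached 1 in fewer than 2 of the 52 libraries and was not tested. It stood at 8.98 in the F1 library labelled endosperm and at 0.613 in that of Mo17. Without that filter its log2 fold change was 1.81. That value rests on the F1 library in which the gene is high, so it gives no support.

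The differences were largest for Zm00001d002768, at a log2 fold change of 12.43 ± 1.22 (SE; limma adjusted p = 1.12e-11), and Zm00001d013494, at 10.96 ± 1.04 (SE; limma adjusted p = 3.70e-12). The smallest adjusted p by limma, 3.53e-31, belonged to Zm00001d019504, whose log2 fold change was 9.20 ± 0.31 (SE). Zm00001d034413 gave 9.01 ± 0.63 (SE; limma adjusted p = 4.16e-17). Each of these genes was higher in both libraries labelled endosperm than in any of the other 25 libraries of the same line.

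Smaller changes belonged to genes low in Mo17 and to genes with a high level in a second library. Zm00001d003447 gave a log2 fold change of 2.46 ± 0.34 (SE; limma adjusted p = 1.96e-07) and Zm00001d020590 gave 3.16 ± 0.30 (SE; limma adjusted p = 4.78e-12). Zm00001d012818, with its husk leaf level, gave 3.99 ± 0.76 (SE; limma adjusted p = 0.000149), but with the Mo17 libraries alone its adjusted p was 0.357. Zm00001d018255 gave 2.95 ± 0.58 (SE; limma adjusted p = 0.000261), or 0.227 with the Mo17 libraries alone. Zm00001d025082 gave 3.96 ± 0.42 (SE; limma adjusted p = 9.17e-11), or 0.0536 with the Mo17 libraries alone. Zm00001d004287 was the exception, at 1.53 ± 0.57 (SE; limma adjusted p = 0.118). In F1 alone it was at 3.24 (limma adjusted p = 0.0119) and in Mo17 alone at -0.17 (limma adjusted p = 0.932).

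The circRNAs of the 63 genes were read from separate libraries, so they give a measure that the choice did not use. The catalogue held 96 circRNAs on 30 of the 63 genes, and 33 genes had none. The catalogue records 93 of the 96 at a B73 position, on build B73 RefGen_v4, with spans of 215 to 4982 bp and a median of 587 bp, beside a median of 1038 bp over all 80836 catalogued at a B73 position. Of the 96, 58 were listed in B73, 7 in Mo17 and 54 in F1. On the 29 paired genes, the ones that can be traced to Mo17, the numbers were 22, 7 and 29.

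Like the mRNA, the circRNAs lay mainly in the library labelled endosperm. Found here means above 0 RPM, and a value of 0 does not show absence. In B73, 44 of 58 were found there, or 75.9%, where 12.8% of all listed circRNAs were, and 39 were found there alone, or 67.2%, where 2.61% of all were. In F1, 42 of 54 were found there, or 77.8% against 16.6% of all, and 34 there alone, where 3.77% of all were. In Mo17, 5 of 7 were found there and nowhere else, or 71.4%, where 20.7% of all were found there and 5.51% there alone. The library labelled embryo held 1 of the circRNAs in B73, 0 in Mo17 and 3 in F1, and no other library held more than 5.

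**Figure D4:**
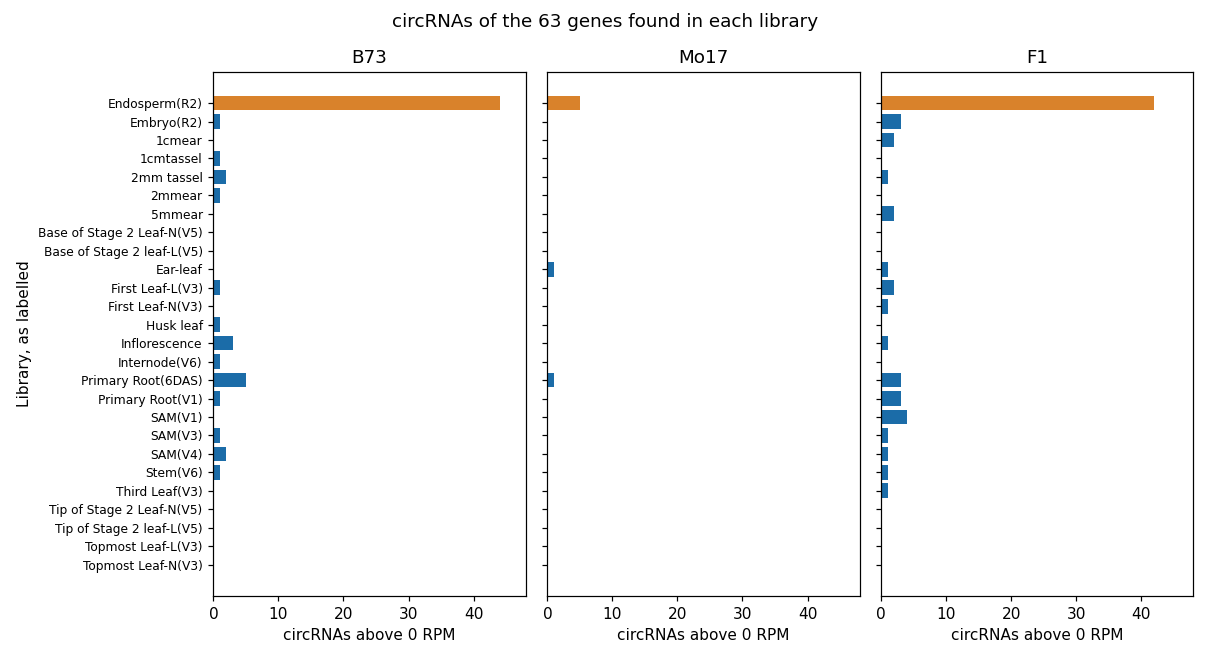
Bars give the number of circRNAs of the 63 genes above 0 RPM in each of the 26 libraries of B73, Mo17 and F1, with the library labelled endosperm in orange. It holds 44, 5 and 42 of them, and the highest of the other libraries holds 5 in B73, 1 in Mo17 and 4 in F1.

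Most of these circRNAs were scarce. Of those found in the library labelled endosperm, 25 of 44 in B73 and 18 of 42 in F1 were at the smallest value of that library, within 0.1%. Those values were 0.0587 RPM in B73 and 0.0665 RPM in F1. In B73, values such as 0.0783 and 0.0979 RPM lie closer together than 0 and 0.0587 RPM. A 0 can thus stand for RNA under a lower limit, so circRNAs found in that library alone may be present elsewhere. At 0.2 RPM or more there were 7 in B73, 0 in Mo17 and 11 in F1. Summed over all of them, the library labelled endosperm held 8.78 RPM in B73, 0.484 RPM in Mo17 and 17.5 RPM in F1. The highest sum among the other libraries, kernel left aside, was 0.598 RPM in B73 and 0.228 RPM in F1.

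Zm00001d033447, on chromosome 1, carried the most, with 16 catalogued circRNAs. Of the 15 with a B73 position, 12 share the start 262991940 on the plus strand and differ in their end. The one ending at 262992886, 947 bp long, reached 10.2 RPM in the F1 library labelled endosperm and was at 0 in the other 25 F1 libraries. It is not in the B73 table, where a circRNA ending 2 bp earlier, at 262992884, was at 0.274 RPM in the library labelled endosperm and at 0 elsewhere. Whether these are a single junction placed differently in the tables was not tested. A further F1 circRNA of this gene, from 262992131 to 262992578, was at 0.865 RPM. The Mo17 table listed 1 circRNA of this gene, from 262992529 to 262993289, at 0.121 RPM, and it was at 0.367 RPM in F1. The mRNA of the gene was 237 in B73, 1468 in Mo17 and 1230 in F1. After scaling, Mo17 and F1 were at 4.10 and 5.25 times the B73 level. The summed circRNA was 0.627 RPM in B73, 0.121 RPM in Mo17 and 11.9 RPM in F1. F1 was thus highest for mRNA after scaling and for circRNA as deposited, while mRNA as deposited was highest in Mo17. Mo17 was above B73 for mRNA and below it for circRNA, where it rests on 1 listed circRNA.

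**Figure D5:**
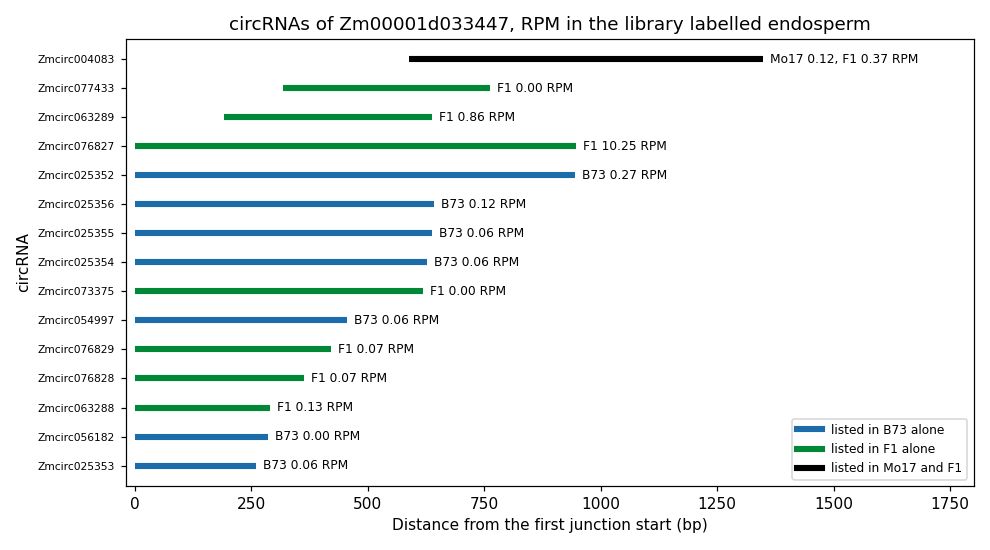
The 15 circRNAs of Zm00001d033447 with a B73 position, drawn to scale from the first junction start in bp and coloured by the table that lists them, with their RPM in the library labelled endosperm printed beside them. The 12 lines that start at 0 share a junction start, and the pair of longest among them, at 10.2 RPM in F1 and 0.274 RPM in B73, end 2 bp apart.

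Near-identical junctions occurred in 3 of the genes: 15 circRNAs formed 14 pairs whose starts and ends both lay within 10 bp. On Zm00001d032610, on chromosome 1, 4 such circRNAs were listed in B73 alone. The most abundant, from 232016752 to 232017063 on the minus strand, was at 2.21 RPM in the library labelled endosperm, and its neighbour starting at 232016753 was at 0.685 RPM. The 4 together were at 3.02 RPM there and at 0 in the other 25 B73 libraries. In F1 this gene had 1 circRNA, at 0.0887 RPM, although its mRNA stood at 501 in F1 and 396 in B73. After scaling for genes without a Mo17 partner, the F1 mRNA was 2.28 times the B73 level. On Zm00001d005016, on chromosome 2, a B73 circRNA from 153921690 to 153921986 was at 0.999 RPM, and an F1 circRNA ending 2 bp earlier, at 153921984, was at 0.643 RPM. Neither was found in another library of its line.

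Other circRNAs had the same positions in B73 and F1. Of the 96, 18 were listed in both. On Zm00001d017399, on chromosome 5, the circRNA from 194918385 to 194918974 was at 0.979 RPM in B73 and 1.04 RPM in F1 in the library labelled endosperm, and it was found in 4 libraries of each line. On Zm00001d052405, on chromosome 4, the circRNA from 189192704 to 189194048 was at 0.568 RPM in B73 and 0.333 RPM in F1. These host genes were of middling mRNA level, at 72.4 and 80.7 in B73. The highest of the 63 genes by mRNA, Zm00001d002768, had no catalogued circRNA.

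Between the parents, 4 circRNAs were listed in both B73 and Mo17, of which 3 were in the library labelled endosperm of both. On Zm00001d012764, on chromosome 8, the circRNA from 180333590 to 180334410 was at 0.0979 RPM in B73, 0.109 RPM in Mo17 and 0.400 RPM in F1. On Zm00001d048176, on chromosome 9, the one from 151548778 to 151549292 was at 0.0588, 0.182 and 0.156 RPM in the same order. On Zm00001d042396, on chromosome 3, the one from 164463068 to 164465237 was at 0.0588 RPM in B73 and 0.0363 RPM in Mo17, the smallest value of each library. On Zm00001d020590, on chromosome 7, the one from 123884590 to 123886116 was at 0 in the library labelled endosperm of both, at 0.0570 RPM at most in B73 and 0.0586 RPM in Mo17.

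Many circRNAs on a gene did not mean much circRNA. Zm00001d034413 had 8 catalogued, which summed to 0.117 RPM in the B73 library labelled endosperm and 0.266 RPM in that of F1, with 1 listed in B73 and 7 in F1. Zm00001d025201, the gene with RNA in all libraries, had 6, of which 3 were found in the B73 library labelled endosperm, at a summed 0.215 RPM, and 4 were found in other B73 libraries.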

How the data were processed

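mRNA and circRNA were measured in 26 tissues of B73, Mo17 and F1. The Mo17 mRNA table holds TPM, as deposited by the authors, with column sums between 1000010 and 1000070. The B73 and F1 mRNA tables hold a signal whose unit the deposited files do not name, with column sums of 337628 to 694778 and 1147180 to 1653240. The circRNA tables hold RPM as deposited. Per the submitters' processing notes, TopHat, HISAT, SAMtools and StringTie were used, with no version given, and the build was B73 RefGen_v4. The source column of the deposited circRNA annotation reads circexplorer2. Sequencing depth and read counts per library are unknown, so no interval for counting error is given.

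The deposited pairing lists joined the tables, and 0 columns of samples went unused. By their decimals, 47.2% of F1 values of paired genes were whole multiples of 1/6 and not of 1/3 of a millionth. Among the other F1 values the share was 1.24%. Why the decimals differ was not tested. The members were found by the limits of 20 and 10-fold. A trended limma fit (version 3.58.1, under R 4.3.3) compared 2 with 50 Mo17 and F1 libraries on log2(value + 1), the line as a block. Within its table, each library was divided by a size factor, the median ratio of its values to the genes' geometric means, taken from genes reaching 1 in every library. Genes at 1 or more in at least 2 of the 52 libraries were tested, with a threshold of 0.05 on the adjusted p. Fold changes on this scale understate those of low genes. Tested on simulated data for this comparison with 28584 genes, the fit called 58 of 100 genes changed by 2 on the log2 scale and 85 of 100 changed by 4. The other alternatives were other limits, pseudocounts, filters, scalings and subsets of libraries. Tables joined across lines were normalized separately.

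The members, the lists and the tests were chosen with earlier results of these data known. Members named are the 10 highest in B73, the 5 highest in Mo17 and in F1, the 5 paired with the lowest ratio to another library in Mo17 and in F1, the 5 highest and 5 lowest by Mo17 over B73, the 6 with most circRNAs and the 6 hosts of the most abundant, and the 3 on each side of each limit. The circRNAs named are the 6 highest in B73 and in F1, those of Mo17 with a B73 position, those in both parents, and others on the hosts so named. No genome or sequence table of these identifiers was used here, and no sequence is given.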

Additional observations from a re-analysis of the deposited data

Results flagged for a closer look

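Zm00001d004287 moved in opposite directions between lines. The library labelled endosperm minus the highest other library was 25.4 in B73, 3.21 in F1 and -6.30 in Mo17, in the deposited unit of each table. The difference between lines was not tested, since each line has 1 library of that label. It was the only one of the 29 paired genes with a change of sign. B73 values chose the gene, so its direction there was fixed.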

How the results depend on the processing

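The counts of members within the limits, 18 in Mo17 and 42 in F1, stayed within 1.5 times their value with each alternative fold, minimum and scaling and without the library labelled embryo. Members called higher by limma ranged from 23 to 28 over the alternatives. The count of all genes called higher, 1436, fell to 381 with Mo17 libraries alone and 566 with F1 libraries alone, where the lone library labelled endosperm was assumed to vary like the others. It was 1398 with no replicate block, that is no line term, and 1099 to 1934 with the other pseudocounts, filters, scalings and subsets. Fewer libraries entered the single-line fits and the fit without the libraries labelled embryo, and the remaining fits used all 52. At 0.2 RPM or more, circRNAs in the library labelled endosperm numbered 7 in B73, 0 in Mo17 and 11 in F1. Counting those placed in both genomes left 4 in B73, 4 in Mo17 and 9 in F1. Of the single-gene alternatives, 272 kept their direction and side of the threshold. The log2 fold change of Zm00001d004287 was -0.17 in Mo17 alone, and the cause was not tested. It passed the threshold in F1 alone, at 3.24, and with a pseudocount of 10, at 0.47. Tissue was not replicated within a line, and 25 of 44 B73 circRNAs lay at the smallest value of their library.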

Other observations

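Among the 10912 genes in both the B73 and Mo17 tables, 20 met the limits of 20 and 10-fold in the Mo17 library labelled endosperm and not in B73. In B73, 14 of these 20 were under 20 and 17 were under 10-fold.

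Across the 29 paired members, log2 levels in the library labelled endosperm had a Pearson correlation of 0.948 between Mo17 and F1 and of 0.810 between B73 and Mo17, given as a description over genes that share their libraries.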
